A study of Homo sapiens with 11 samples.

Results

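Interferon-stimulated genes were followed through the long-term culture of human cardiomyocytes. The set is a list of 41 gene symbols, read by name from the study's count table, and 35 of them are among the 19990 genes of that table. MX2, IFI27, OASL, DHX58, RSAD2 and CMPK2 were not analysed here. All 35 analysed members passed the filter on low counts, which removed no gene of the table.

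The study asked how cardiomyocytes made from pluripotent stem cells mature during long culture. Bulk poly(A) RNA was sequenced from 11 wells of cardiomyocytes made from WTC11 cells at passage 63, where WTC11 is a widely used human iPSC line. Every well came from 1 differentiation, which was induced with CHIR99021, a GSK3 inhibitor, and then IWP2, an inhibitor of Wnt secretion, and every well was afterwards kept in B27 medium with insulin. The groups differed in the day of collection alone, which was Day 30 for 4 of the wells, Day 60 for 3 and Day 113 for 4. The labels name no treatment with an interferon or a virus, and they list no second line or differentiation. The p-values therefore measure the spread between wells of that differentiation, and the effects of collection and of day cannot be told apart. In bulk RNA, fewer cells of a type and less RNA per cell cannot be told apart either.

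Interferons are secreted signals of antiviral defence. Type I interferons bind the receptor made of IFNAR1 and IFNAR2, whose kinases JAK1 and TYK2 phosphorylate STAT proteins, and a complex that contains STAT2 and IRF9 then binds the interferon-stimulated response element in the promoters of its target genes. Many cell types, cardiomyocytes among them, keep a low level of these genes without infection, and double-stranded RNA or cytosolic DNA raises them through sensors such as the product of IFIH1. The products act on viral entry, RNA and protein synthesis, and some of them, such as USP18, dampen the signal.

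The core of that response element is 2 GAAA blocks separated by 2 bases, and it was looked for in the promoters of the members. RefSeq promoter windows (GRCh38.p14, 250 bases before to 50 after each annotated start) were matched by symbol for 29 of the 35 members. IFIT2, IFITM2, IRF7, OAS2, TRIM22 and USP18 had no window. The letters GAAANNGAAA, on either strand and counted by gene however many matches overlapped, were present in 19 of the 29 members (65.5%). Among all 27305 genes with a window the share was 4.38%, and among the 13692 of them in the count table it was 3.98%. The members were listed by name as interferon-stimulated genes, so high shares of such motifs can follow from the choice of list. They carry no result about these wells. The lines that follow give 1 match each for 12 promoters of members described below, read 5′ to 3′ on the strand of the gene, with the matched bases in capitals and 10 flanking bases on each side in lower case. Where the capitals read TTTCNNTTTC, the match lies on the other strand.
ISG15: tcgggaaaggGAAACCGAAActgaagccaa
MX1: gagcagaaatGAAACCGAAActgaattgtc
OAS3: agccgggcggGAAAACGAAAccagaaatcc
IFIT1: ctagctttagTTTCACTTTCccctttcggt
IFIT3: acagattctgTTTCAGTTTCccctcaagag
IFI44L: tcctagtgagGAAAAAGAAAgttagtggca
IFI44: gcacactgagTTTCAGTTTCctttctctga
IFIH1: gaagagaatcGAAACAGAAAccaaagtcag
HERC5: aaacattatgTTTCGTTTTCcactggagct
DTX3L: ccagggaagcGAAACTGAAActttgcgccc
SAMD9: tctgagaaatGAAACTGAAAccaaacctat
EPSTI1: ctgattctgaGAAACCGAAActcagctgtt

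The printed stretch of ISG15 is chr1:1013380-1013409 on the plus strand, that of MX1 is chr21:41420559-41420588 (plus), that of OAS3 is chr12:112938452-112938481 (plus) and that of IFIT1 is chr10:89392497-89392526 (plus). IFIT3 is shown at chr10:89332425-89332454 (plus), IFI44 at chr1:78649761-78649790 (plus), IFIH1 at chr2:162318686-162318715 (minus) and HERC5 at chr4:88457035-88457064 (plus). DTX3L is shown at chr3:122564322-122564351 (plus), SAMD9 at chr7:93118096-93118125 (minus) and EPSTI1 at chr13:42992272-42992301 (minus). The IFI44L stretch is identical at chr1:78620274-78620303 and chr1:78620365-78620394 (plus), so its promoter holds the same 30 bases 2 times. The DTX3L site, at bases 122564332 to 122564341 of chromosome 3, also lies in the promoter window of PARP9, which runs the other way. ISG15, EPSTI1 and MX1 share the matched 10 bases GAAACCGAAA, and DTX3L and SAMD9 share GAAACTGAAA. Read on the other strand, the printed IFIT3 and IFI44 matches are the same 10 bases as those of DTX3L and SAMD9. The HERC5 match read that way is the same as that of OAS3. A second motif, TTCNNNGAA, which reads the same on both strands and is the core bound by STAT dimers, was present in 9 of the 29 members (31.0%) and in 8.61% of the genes of the count table. The 2 motifs may share bases. A match is a description of letters and was not tested for binding.

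Most members rose, and most of the calls fell after Day 60. From Day 60 to Day 113, 26 of the 35 members were higher by edgeR's quasi-likelihood test (adjusted p under 0.05, Benjamini-Hochberg over all genes), against 12.9% of all genes higher and 24.0% called in either direction. In that interval 0 members were lower, where 11.1% of all genes were. The count of lower members was also 0 at an unadjusted p under 0.05, with DESeq2 and with limma-voom. From Day 30 to Day 60, 7 members were higher and 1 was lower, where 4.39% of all genes were higher, 5.91% lower and 10.3% called in all. Over the whole course, Day 113 against Day 30, 29 members were higher and 1 was lower, where 17.3% of all genes were higher, 17.2% lower and 34.5% called. OAS1, OAS2 and XAF1, counted in the 26 and the 29, had no reads before Day 113. They are in the table through their Day 113 reads alone and could not have come out lower. IFI44L had 0 reads at Day 30 and 27 at Day 60, where every gene of the table has at least 35 in all. The same limit applies to these members in the counts of separated wells.

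The median log2 fold change over the 35 members was 0.24 for the first interval, 1.57 for the second and 1.80 for the whole course, and that over all genes was -0.01, 0.00 and -0.02. These medians are unchanged when members with 0 counts in a day are set to their bounds. All wells of the later day lay above all wells of the earlier day for 9 members in the first interval, 24 in the second and 26 over the whole course, where 10.7%, 16.2% and 17.1% of all genes were separated in that direction. The 2 intervals share the Day 60 wells, so they are not independent. Without Day 60 replicate 3, the 8 calls of the first interval became 5.

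Members that rose in both intervals were IFI44, IFIT2, IFIH1, HERC5, HERC6 and PARP14. STAT2, IRF1, IRF7 and IFITM1 passed the test in no pair of days. EPSTI1 was the member that fell. The difference between the 2 intervals was itself tested. For IFI44L, OAS1, OAS2 and XAF1, which had no reads on at least 1 day, no value of that difference is given. Of the other 31 members it passed for 4, MX1, IFITM2, IFITM3 and USP18, all with the larger change after Day 60, where 4.97% of all genes passed in that direction and 9.34% in either. That count ran from 1 to 9 with a single well left out. A larger rise in the second interval is therefore not shown for the remaining 27.

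**Figure D1:**
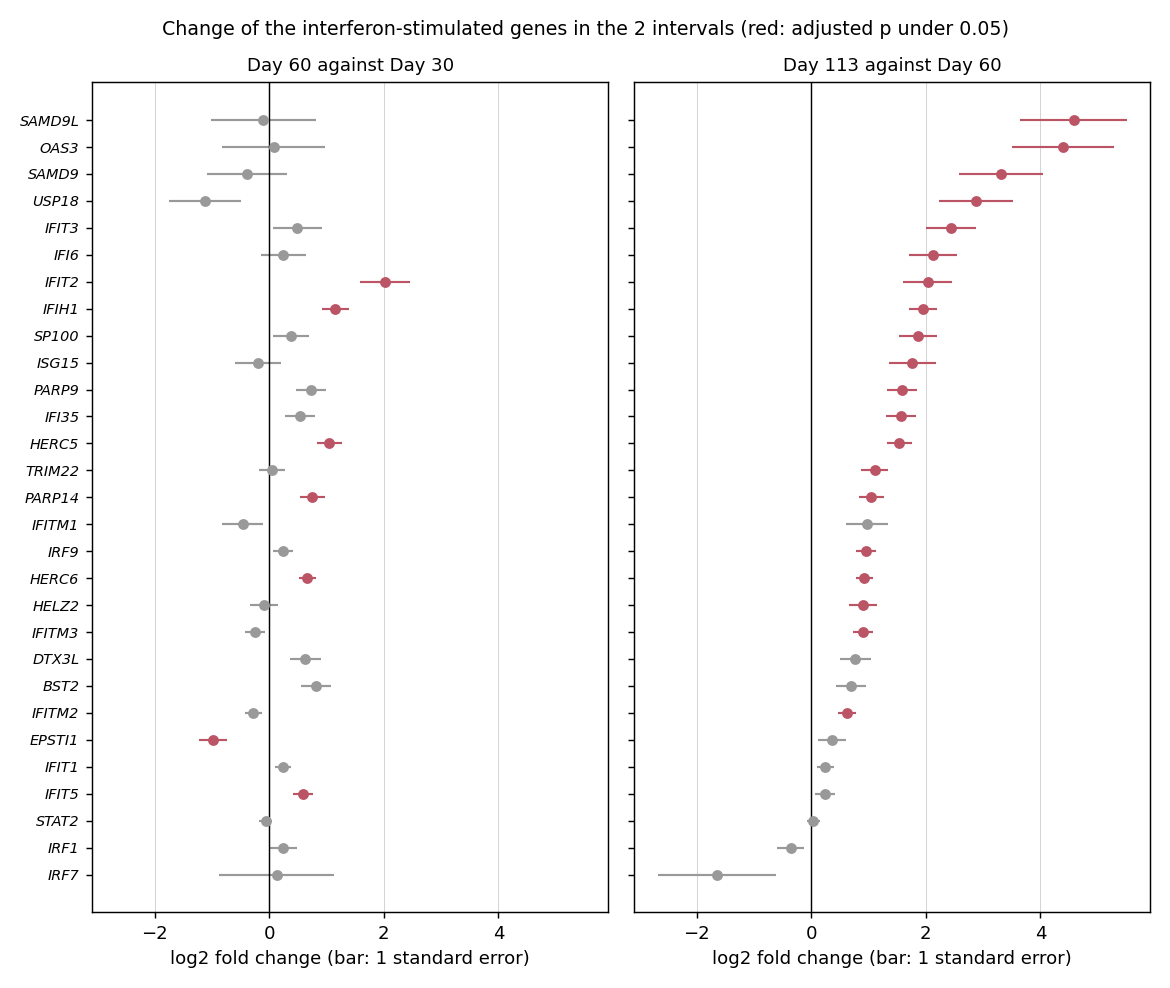
Log2 fold change (points, with the standard error as bars) of 29 members for Day 60 against Day 30 and for Day 113 against Day 60, with adjusted p under 0.05 in red. The 6 members with 3 counts or fewer in a day are not drawn, and the points of the second interval lie mostly to the right of 0, where the first interval has 7 higher members and 1 lower member in all.

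The libraries held 24071375 to 34546715 counts, and levels are given as CPM, the counts of a gene per 1000000 counts of its library after TMM scaling. A count of 0 in a well allows up to 3 counts, which was 0.0856 to 0.120 CPM, and a fold against a day with 0 counts is given as a bound at that floor per library. Such floors and intervals cover counting error only, because the libraries carried no molecular identifiers. After ±, a level in CPM carries the SD between wells (n = 4, 3 and 4 for the 3 days in order) and a log2 change carries its standard error. CPM is not corrected for gene length, so levels are compared between wells and not between genes.

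All 3 analysed oligoadenylate synthetases rose after Day 60. These enzymes make the 2-5A messenger that activates RNase L, and OAS1, OAS3 and OAS2 lie side by side on chromosome 12, bases 112906777 to 113011723 (GRCh38, GENCODE 29). OAS1 had 0 counts in all 7 wells of Day 30 and Day 60, and its levels at Day 113 were 1.07, 3.04, 6.10 and 0.722 CPM in replicates 1 to 4. OAS2 likewise had 0 counts in those 7 wells, and at Day 113 it stood at 1.96, 1.24, 4.28 and 0.161 CPM. Every Day 113 well held reads of both genes, and replicate 3 was the highest for both.

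From Day 60 to Day 113, OAS1 was at least 27.2-fold higher by edgeR (adjusted p = 0.00129) and OAS2 at least 19.04-fold higher (adjusted p = 0.00416). Both genes are in the table through their Day 113 reads alone, so no fall could have been found. Leaving out Day 113 replicate 3 gave bounds of 16.0-fold and 11.2-fold. OAS3 was present throughout at a low level, at 0.0764, 0.534, 0.428 and 0.275 CPM at Day 30 and at 0, 0.995 and 0.0946 CPM at Day 60. At Day 113 it reached 6.84, 6.49, 13.2 and 3.05 CPM, all above every earlier well. The rise of OAS3 in the second interval was 4.39 ± 0.89 (SE) on the log2 scale (adjusted p = 0.00224), and it was 7.16 without Day 60 replicate 2, the well with most of the Day 60 counts, and 3.78 without Day 60 replicate 1.

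MX1, a dynamin-like GTPase that traps viral nucleocapsids, lies on chromosome 21, bases 41420304 to 41459214. Its Day 30 wells held 0.267, 0.234, 0.0329 and 0.790 CPM, and its Day 60 wells 0.0319, 0.0369 and 0 CPM, which is 38 and 2 reads in all. At Day 113 it stood at 3.49, 8.36, 18.3 and 1.77 CPM, so all 4 wells were above every earlier one and differed among themselves by 10.4-fold. Against Day 60 the ratio of summed counts was 383 (exact 95% interval 106 to 3168, counting error only), and leaving out Day 113 replicate 3 gave 203, and leaving out Day 60 replicate 3 gave 248.5. The edgeR adjusted p was 0.000156 and ran from 1e-07 to 0.0932 over the alternatives, wells left out included, the highest being limma-voom. Against Day 30 the rise was 4.58 ± 0.76 on the log2 scale (adjusted p = 0.000232), or 3.76 without Day 113 replicate 3 and 5.48 without Day 30 replicate 4. MX1 at Day 60 against Day 30 did not pass (adjusted p = 0.0956).

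The IFIT proteins bind foreign RNA and block its translation, and their 4 genes occupy chromosome 10, bases 89283694 to 89421001. They differed in the interval in which they passed. IFIT2 went from 0.382, 1.43, 1.09 and 0.206 CPM at Day 30 to 2.11, 3.24 and 4.23 CPM at Day 60 and 12.8, 10.9, 16.1 and 12.4 CPM at Day 113. No well of 1 day overlapped those of another, and IFIT2 rose by 2.02 ± 0.44 in the first interval (adjusted p = 0.00777) and by 2.03 ± 0.43 in the second (adjusted p = 0.00294) on the log2 scale. Exons of IFIT2 overlap those of LIPA, and whether counting used strand is not given in the sources used here, so its counts are uncertain to that extent.

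IFIT3 had 1.72, 1.73, 1.55 and 0.447 CPM at Day 30, 1.50, 2.69 and 1.58 CPM at Day 60 and 7.79, 11.4, 16.4 and 6.02 CPM at Day 113. The first 2 days overlapped and Day 113 lay above both, with a rise of 2.44 ± 0.44 after Day 60 (adjusted p = 0.00104). IFIT1 was already at 73.7 ± 5.09 CPM (SD, n = 4) at Day 30, 87.3 ± 13.5 CPM (n = 3) at Day 60 and 104 ± 19.5 CPM (n = 4) at Day 113. It passed over the whole course (0.49 ± 0.13, adjusted p = 0.00814), although its Day 30 and Day 113 wells overlapped, and in neither interval alone. IFIT5 was at 14.0 ± 2.23, 21.1 ± 2.26 and 24.8 ± 4.95 CPM, with a first-interval rise of 0.59 ± 0.17 (adjusted p = 0.0384) that did not pass when any of 5 wells was left out (Day 30 replicates 1, 2 and 3, Day 60 replicates 1 and 3) or with the replicate number as a block, with an adjusted p of 0.0142 to 0.117 over the alternatives. Its whole-course rise was 0.82 ± 0.16 (adjusted p = 0.000867).

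IFI44 and IFI44L are neighbouring interferon-induced genes on chromosome 1, bases 78619922 to 78664078. IFI44 had a single read in the 4 Day 30 wells together, then 0.734, 0.627 and 0.473 CPM at Day 60 and 7.19, 8.89, 18.8 and 4.21 CPM at Day 113. The 3 days did not overlap. The ratio of summed counts at Day 60 to Day 30 was 70.5 (exact 95% interval 12.1 to 2836), with an edgeR adjusted p of 0.000644 that ran from 9.49e-06 to 0.201 over the alternatives, the highest being limma-voom. That single read was in Day 30 replicate 3, without which Day 30 is at 0. From Day 60 to Day 113 IFI44 rose by 3.99 ± 0.51 (adjusted p = 6.49e-05).

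IFI44L had 0 counts at Day 30, 0, 0.442 and 0.473 CPM at Day 60, and 2.11, 4.72, 13.5 and 1.16 CPM at Day 113. It was at least 51.5-fold higher at Day 113 than at Day 30 (adjusted p = 0.000184), and the bound fell to 25.6-fold once Day 113 replicate 3 was left out. From Day 60 to Day 113 it rose by 4.13 ± 1.01 (adjusted p = 0.0103, with a range of 0.000895 to 0.0753 over the alternatives). That call was lost with limma-voom and without Day 113 replicate 3, where the log2 change was 3.12, and the value was 3.53 without Day 60 replicate 1.

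**Figure D2:**
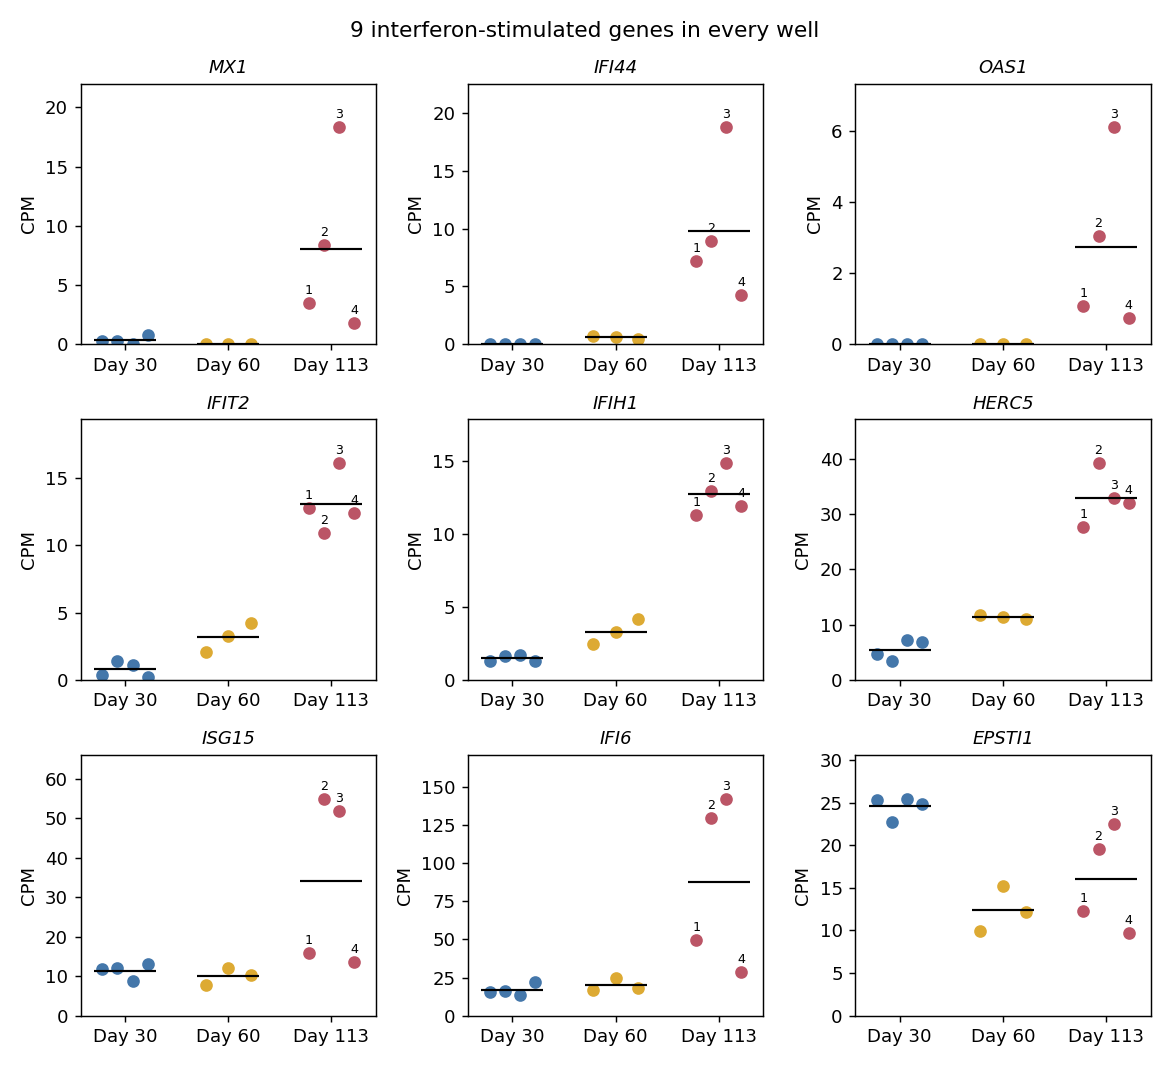
CPM of 9 members in each of the 11 wells by day of culture, with a black line at the mean of each day and the replicate number beside each Day 113 well. Day 113 replicate 3 is the top well for MX1 (18.3 CPM) and IFI44 (18.8 CPM), and EPSTI1 is highest at Day 30.

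Of the RNA sensors on the list, IFIH1 was analysed. It encodes MDA5, which detects long double-stranded RNA, on chromosome 2, bases 162267079 to 162318703. Its wells held 1.30, 1.60, 1.71 and 1.27 CPM at Day 30, 2.43, 3.28 and 4.16 CPM at Day 60 and 11.3, 12.9, 14.9 and 11.9 CPM at Day 113. The 3 days were separated from each other, and the Day 113 wells agreed to within a CV of 12.3%. IFIH1 rose by 1.16 ± 0.24 to Day 60 (adjusted p = 0.00559, with a range of 0.000383 to 0.0584 over the alternatives, the highest being limma-voom) and by 1.95 ± 0.24 from there to Day 113 (adjusted p = 5.17e-05). Its whole-course rise of 3.11 ± 0.23 had the lowest adjusted p of the members (9.55e-08).

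Of the 4 transcription factors analysed, IRF9 passed the test. IRF9, the DNA-binding subunit of that STAT2 complex, lies on chromosome 14, bases 24161053 to 24166565. Its wells held 18.4, 22.9, 23.2 and 19.1 CPM at Day 30, 28.5, 25.1 and 20.6 CPM at Day 60 and 38.4, 62.4, 52.1 and 38.8 CPM at Day 113. The Day 113 wells were above all others, and the rise after Day 60 was 0.96 ± 0.18 (adjusted p = 0.00115).

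STAT2, the partner of IRF9, was at 48.3 ± 5.53, 46.3 ± 3.43 and 47.4 ± 4.37 CPM on the 3 days, with a whole-course difference of -0.03 ± 0.11 (adjusted p = 0.883). IRF1, a factor also induced by interferon gamma, was at 11.2 ± 1.17, 13.4 ± 3.51 and 10.4 ± 3.11 CPM (whole course -0.11 ± 0.22, adjusted p = 0.739). IRF7, which amplifies interferon production, was at 0.496 ± 0.251, 0.541 ± 0.542 and 0.170 ± 0.155 CPM, with 56, 51 and 21 reads over the wells of each day (whole course -1.51 ± 0.98, adjusted p = 0.259).

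ISG15 is a ubiquitin-like protein that is attached to other proteins, in human cells mainly by the ligase HERC5, and removed by USP18, which also binds IFNAR2 and limits signalling. ISG15 (chromosome 1, bases 1001138 to 1014540) had 11.8, 11.9, 8.75 and 13.2 CPM at Day 30, 7.69, 12.0 and 10.4 CPM at Day 60 and 15.8, 54.9, 51.8 and 13.6 CPM at Day 113. The Day 113 wells formed 2 levels, with replicates 2 and 3 high and replicates 1 and 4 just above the earlier days. ISG15 rose by 1.77 ± 0.41 after Day 60 (adjusted p = 0.00549).

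HERC5 and the related HERC6 lie together on chromosome 4, bases 88378739 to 88506163. HERC5 had 4.62, 3.34, 7.21 and 6.77 CPM at Day 30, 11.8, 11.4 and 10.9 CPM at Day 60 and 27.6, 39.3, 32.9 and 31.9 CPM at Day 113. No 2 days overlapped, with rises of 1.05 ± 0.22 (adjusted p = 0.00531) and 1.53 ± 0.22 (adjusted p = 0.000162) in the 2 intervals. HERC6 followed the same order, at 12.2 ± 1.95, 19.4 ± 1.09 and 36.9 ± 5.04 CPM, with rises of 0.66 ± 0.15 (adjusted p = 0.0089) and 0.93 ± 0.15 (adjusted p = 0.000427).

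USP18 (chromosome 22, bases 18149899 to 18177397) had 0.420, 2.20, 1.58 and 0.515 CPM at Day 30, 0.798, 0.184 and 0.631 CPM at Day 60 and 2.68, 5.29, 5.45 and 2.53 CPM at Day 113. The first 2 days overlapped, and the Day 113 wells were above both. It rose by 2.87 ± 0.65 after Day 60 (adjusted p = 0.00474). Its whole-course rise of 1.75 ± 0.55 (adjusted p = 0.0205) did not pass when Day 30 replicate 1 or 4, or Day 113 replicate 2 or 3, was left out (adjusted p over the alternatives 0.0058 to 0.0623).

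PARP9 and DTX3L encode an ADP-ribosyltransferase and a ubiquitin ligase that work as 1 complex in antiviral and DNA damage responses, and PARP14 is their neighbour, a mono-ADP-ribosyltransferase. The 3 genes lie on chromosome 3, bases 122527924 to 122730840. PARP9 had 3.32, 5.14, 7.54 and 3.19 CPM at Day 30, 6.57, 9.40 and 7.95 CPM at Day 60 and 21.5, 25.5, 28.3 and 20.3 CPM at Day 113, with the Day 113 wells above all others (rise after Day 60 of 1.58 ± 0.26, adjusted p = 0.000504). DTX3L had 9.43, 12.0, 13.4 and 5.43 CPM at Day 30, 15.2, 15.4 and 16.3 CPM at Day 60 and 27.3, 28.3, 35.3 and 15.6 CPM at Day 113.

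DTX3L passed over the whole course (1.40 ± 0.25, adjusted p = 0.000502) and just missed after Day 60 (0.77 ± 0.27, adjusted p = 0.0508). Exons of PARP9 and DTX3L overlap, so reads in the shared stretch cannot be assigned with certainty. PARP14 had 11.3, 19.7, 20.4 and 11.7 CPM at Day 30, 25.1, 30.3 and 24.6 CPM at Day 60 and 54.5, 44.2, 72.9 and 48.5 CPM at Day 113. Its 3 days did not overlap. The rises were 0.76 ± 0.21 (adjusted p = 0.0325) and 1.05 ± 0.22 (adjusted p = 0.00267), and the first was lost when Day 30 replicate 1 or 4 or any Day 60 well was left out (adjusted p over the alternatives 0.00684 to 0.117).

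SAMD9 and SAMD9L, paired genes on chromosome 7 (bases 93099513 to 93148369) whose products restrict poxviruses and slow cell growth, were at 1.18 CPM or less in every well before Day 113. SAMD9 had 0.115, 0.901, 1.18 and 0.206 CPM at Day 30, 0.638, 0.369 and 0.379 CPM at Day 60 and 4.65, 3.97, 8.36 and 1.52 CPM at Day 113. SAMD9L had 0, 0.701, 0.790 and 0.103 CPM at Day 30, 0.351, 0.811 and 0 CPM at Day 60 and 14.9, 5.21, 11.1 and 5.30 CPM at Day 113. Both were above every earlier well in all 4 Day 113 wells. After Day 60, SAMD9 rose by 3.31 ± 0.73 (adjusted p = 0.00414) and SAMD9L by 4.58 ± 0.93 (adjusted p = 0.0023), with SAMD9L at 5.67 without Day 60 replicate 2 and 3.97 without Day 60 replicate 3. SAMD9L was highest in Day 113 replicate 1 and SAMD9 in replicate 3.

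Among the membrane restriction factors, IFITM2 and IFITM3 passed after Day 60 and BST2 over the whole course. BST2, or tetherin, holds budding virus at the cell surface, and its gene lies on chromosome 19, bases 17402939 to 17405648. BST2 had 18.0, 21.2, 19.1 and 14.1 CPM at Day 30, 23.0, 39.1 and 33.4 CPM at Day 60 and 42.9, 70.8, 64.9 and 27.7 CPM at Day 113. Day 113 lay above Day 30 in all wells (1.51 ± 0.24, adjusted p = 0.000189), and neither interval alone passed (adjusted p = 0.0569 and 0.0638).

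The IFITM proteins block fusion of virus with the cell, and their near-identical genes lie on chromosome 11, bases 307631 to 327537, so reads may be divided among them with error. The annotated exons of IFITM1 and IFITM2 overlap as well. IFITM3 had 177, 215, 182 and 166 CPM at Day 30, 138, 181 and 149 CPM at Day 60 and 253, 376, 330.04 and 202 CPM at Day 113. The Day 113 wells were above those of Day 60 (0.90 ± 0.17, adjusted p = 0.00172) and overlapped those of Day 30 (0.65 ± 0.16, adjusted p = 0.00474).

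IFITM2 was at 48.5 ± 2.02, 39.9 ± 2.90 and 61.4 ± 13.9 CPM. It rose after Day 60 (0.62 ± 0.15, adjusted p = 0.00713), where the wells overlapped, and did not pass over the whole course (0.34 ± 0.14, adjusted p = 0.0655). IFITM1 had 18.4, 33.7, 47.8 and 10.6 CPM in the Day 113 wells, a range that took in all Day 30 and Day 60 wells (19.5 ± 5.45 and 14.2 ± 1.76 CPM), and it passed in no comparison (adjusted p = 0.0685 after Day 60).

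IFI6, an antiviral membrane protein that also limits apoptosis, lies on chromosome 1, bases 27666061 to 27672218. It had 15.8, 16.3, 13.6 and 22.0 CPM at Day 30, 17.1, 24.7 and 18.3 CPM at Day 60 and 49.5, 130, 142 and 28.6 CPM at Day 113. All 4 Day 113 wells were above the rest, with replicates 2 and 3 far above replicates 1 and 4 (rise after Day 60 of 2.13 ± 0.41, adjusted p = 0.0017). XAF1, a pro-apoptotic partner of XIAP, had 0 counts in the 7 wells of Day 30 and Day 60 and 2.34, 2.06, 2.85 and 0.642 CPM at Day 113. It was at least 19.7-fold higher than at Day 60 (adjusted p = 0.00103). XAF1 too is in the table through its Day 113 reads alone, so no fall could have been found.

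Of the other members, SP100, a component of nuclear PML bodies, was at 3.41 ± 1.29, 4.47 ± 0.624 and 16.2 ± 5.38 CPM and rose by 1.86 ± 0.32 after Day 60 (adjusted p = 0.000728). IFI35 was at 3.91 ± 0.610, 5.70 ± 1.94 and 16.9 ± 4.93 CPM and rose by 1.57 ± 0.26 (adjusted p = 0.000576). TRIM22, an antiviral ubiquitin ligase, was at 4.89 ± 0.560, 5.07 ± 0.760 and 10.9 ± 2.93 CPM and rose by 1.11 ± 0.24 (adjusted p = 0.00315). All 3 had Day 113 wells above every Day 60 well. HELZ2, a helicase that acts as a nuclear receptor coactivator, was at 11.7 ± 2.77, 10.97 ± 2.08 and 20.6 ± 6.05 CPM. Its rise of 0.91 ± 0.25 (adjusted p = 0.0136) came with overlapping wells and was lost without Day 60 replicate 3 (adjusted p over the alternatives 0.00196 to 0.0707).

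EPSTI1, a gene first described in epithelial and stromal cell contact, lies on chromosome 13, bases 42886388 to 42992271, and went the other way. It had 25.3, 22.7, 25.5 and 24.8 CPM at Day 30, 9.99, 15.2 and 12.2 CPM at Day 60 and 12.2, 19.6, 22.5 and 9.67 CPM at Day 113. All Day 60 and Day 113 wells were below every Day 30 well. EPSTI1 fell by 0.98 on the log2 scale (SE 0.24) to Day 60 (adjusted p = 0.0157), and this was lost without Day 60 replicate 1 or 3 (adjusted p over the alternatives 0.000526 to 0.0879). The whole-course difference of -0.62 ± 0.22 (adjusted p = 0.0378) did not pass when any Day 30 well, or Day 113 replicate 1 or 4, was left out. Markers of epithelium and endoderm also fell to Day 60. Their summed level was 2415 to 4047 CPM at Day 30, 1312 to 1498 CPM at Day 60 and 1192 to 1991 CPM at Day 113. All 10 of 10 markers were analysed, and 9 were lower at Day 60, where 5.91% of all genes were. Within Day 30, EPSTI1 was lowest in replicate 2 (22.7 CPM), the well with the highest EPCAM (92.0 CPM). The 4 Day 30 values of EPSTI1 lay close together (CV 5.1%), so their order carries little weight. The part of epithelial and endoderm cells in the EPSTI1 result was not tested.

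The 4 wells of Day 113 were spread widely in the members. Day 113 replicate 3 was the highest of the 4 in 23 of the 35 members and replicate 4 in 0, whereas 19.4% and 21.6% of all genes were highest there. Replicate 4 was the lowest in 25 members, against 23.5% of all genes. Relative to the mean of the day, the median member stood at 0.886 in replicate 1, 1.06 in replicate 2, 1.28 in replicate 3 and 0.604 in replicate 4. The median of all genes was 0.984 to 0.992 in the same wells.

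The full order of wells was replicate 3, 2, 1, 4 from high to low in 12 members and 3, 1, 2, 4 in 7. The median ratio of the highest to the lowest Day 113 well was 2.27 over the members and 1.54 over all genes. Members of 1 signalling pathway are not independent of each other, so these counts describe 4 wells and carry no test. The CV between the 4 wells was 12.3% for IFIH1, 13.7% for HERC6, 14.7% for HERC5 and 16.9% for IFIT2, and it was 65.7% for ISG15, 93.2% for MX1 and 104.5% for IFI44L.

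**Figure D3:**
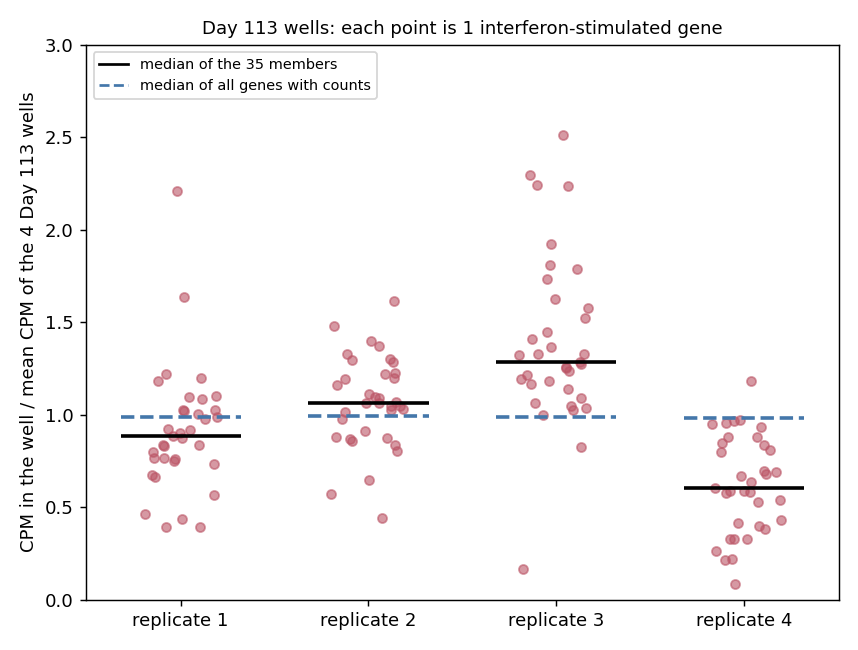
Level of each member in each Day 113 well divided by the mean of the 4 wells, with the member median as a black line and the median of all genes as a dashed blue line. The member medians are 0.886, 1.06, 1.28 and 0.604 in replicates 1 to 4, and the all-gene medians stay between 0.984 and 0.992.

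At Day 30 the wells also differed, with replicate 3 the highest in 16 of the 31 members that had counts and replicate 4 the lowest in 12. In 17 of the 31, among them PARP9, PARP14, SAMD9, SAMD9L, USP18 and IFIT2, replicates 2 and 3 were both above replicates 1 and 4, a split that 21.1% of all genes had. It was chosen after the values were seen. The summed fibroblast markers, mostly COL1A1, COL1A2 and COL3A1, had the same split, at 4655, 8092, 7059 and 3446 CPM in replicates 1 to 4. These 3 collagens, LUM, PDGFRA, DDR2 and FBLN1 each had the split, DCN and TCF21 did not, and POSTN had the reverse. The epithelial marker EPCAM also had the split, at 45.6, 92.0, 71.1 and 28.7 CPM, as did CDH1 and KRT7, while AFP and ALB did not. The cardiomyocyte markers MYH7 and TTN had the reverse split. At Day 60, replicate 2 was the highest in 17 of 32 members. Whether the content of fibroblasts, epithelial cells or cardiomyocytes has a part in these differences between wells was not tested.

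Genes around the members in the same pathway were counted from lists, chosen like the members with results of these data known. None of the 22 interferon ligand genes listed was analysed here. Among 12 receptor and signalling genes, 3 were higher at Day 113 than at Day 60, where 12.9% of all genes were. Over the whole course 4 were higher, against 17.3% of all genes, and IFNLR1, the lambda interferon receptor, was lower (-0.85 ± 0.21, adjusted p = 0.00479). IFNAR1 went from 53.1 ± 2.34 CPM at Day 60 to 70.6 CPM at Day 113 (0.41 ± 0.11, adjusted p = 0.0131), and IFNGR1, a subunit of the interferon gamma receptor, rose by 0.65 ± 0.13 (adjusted p = 0.00232). JAK2, the kinase of that receptor, passed over the whole course (0.81 ± 0.19, adjusted p = 0.00314).

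Of 18 analysed sensors and adaptors, 8 were higher at Day 113 than at Day 60 (12.9% of all genes were), and the median log2 fold change was 0.66, against 0.00 for all genes. That median was 0.55 with AIM2, which had 0 counts at Day 60, set to its bound. TLR3, the endosomal receptor of double-stranded RNA, had 2.23 to 3.16 CPM at Day 30, 4.68 to 6.00 CPM at Day 60 and 9.26 to 12.5 CPM at Day 113. It rose in both intervals (1.00 ± 0.21, adjusted p = 0.00707, and 1.01 ± 0.22, adjusted p = 0.00311). IFI16, a nuclear DNA sensor, rose by 1.24 ± 0.22 after Day 60 (adjusted p = 0.000898), and SAMHD1, which depletes nucleotides, by 1.04 ± 0.17 (adjusted p = 0.000427). MAVS, the adaptor of MDA5 and RIG-I, rose by 0.64 ± 0.12 (adjusted p = 0.00165), and DDX58, which encodes RIG-I, by 0.67 ± 0.17 (adjusted p = 0.00817).

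Of 34 further interferon-induced genes, 6 were higher and 1 lower by Day 60, where 4.39% of all genes were higher and 5.91% lower. At Day 113 against Day 60, 21 were higher (12.9% of all genes), and over the whole course 23 (17.3%). DDX60, an RNA helicase, had 13.8 to 18.8 CPM at Day 30, 23.1 to 27.9 CPM at Day 60 and 44.2 to 52.5 CPM at Day 113, with no overlap between days. It rose by 0.71 ± 0.14 (adjusted p = 0.00307) and then by 0.98 ± 0.14 (adjusted p = 0.000139). CD274, which encodes the checkpoint ligand PD-L1, went from 0.278 CPM at Day 30 to 1.69 CPM at Day 60 and 8.62 CPM at Day 113 on average (2.56 ± 0.54, adjusted p = 0.00652, and 2.35 ± 0.50, adjusted p = 0.00338).

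Of the 12 negative regulators, 1 was higher over the whole course, IRF2, a repressor that competes with IRF1 (0.93 ± 0.12, adjusted p = 2.45e-05). In the same comparison 4 were lower, where 17.3% of all genes were higher and 17.2% lower. Among the 4 were the cytokine signalling suppressors SOCS2 (-1.20 ± 0.15, adjusted p = 2.24e-05) and SOCS3 (-1.10 ± 0.21, adjusted p = 0.000615). SOCS2 was lower after Day 60 (-1.15 ± 0.16, adjusted p = 0.000155). SOCS3 was lower by Day 60 (-0.98 ± 0.22, adjusted p = 0.0107) and did not pass after it (-0.13 ± 0.22, adjusted p = 0.728).

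Other cell types in the wells were followed by their markers. Cardiomyocyte markers were abundant throughout, with a summed level of 35617 to 47804 CPM at Day 30, 44982 to 50844 CPM at Day 60 and 38504 to 42711 CPM at Day 113 (13 of 13 analysed). All 11 wells thus held cardiomyocyte RNA, which does not measure the share of cardiomyocytes among the cells. Endothelial markers rose with the members after Day 60. In the first interval the median log2 fold change was -0.64 for the endothelial markers and 0.24 for the members. The endothelial sum was 86.1 to 126 CPM at Day 30, 54.7 to 89.9 CPM at Day 60 and 282 to 1054 CPM at Day 113. All 14 of 14 endothelial markers were higher at Day 113 than at Day 60, where 12.9% of all genes were. PECAM1, which defines endothelium, rose from 10.8 to 186 CPM on average (4.11 ± 0.40, adjusted p = 8.18e-06).

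Within Day 113 the order was not the same. The endothelial sum was 1054, 490, 520 and 282 CPM in replicates 1 to 4, so replicate 1 was highest, and the summed level of the 35 members was 972, 1352, 1425 and 786 CPM. Replicate 4 was the lowest for both. Fibroblast markers summed to 3446 to 8092, 2125 to 3627 and 5485 to 13111 CPM on the 3 days, with 6 of 10 higher and 1 lower after Day 60. Proliferation markers summed to 417 to 529, 652 to 948 and 235 to 500 CPM, with 7 of 7 lower after Day 60. From Day 60 to Day 113, 12.9% of all genes were higher and 11.1% lower. The part of endothelial cells, of fibroblasts and of dividing cells in the rise of the members was not tested.

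Leukocytes and macrophages carry many of these transcripts in tissue, and those of their markers that were analysed were low. Of 13 listed, CD68, CSF1R, LYZ and SPI1 were analysed, and their sum was 2.71 to 5.07 CPM at Day 30, 1.56 to 2.40 CPM at Day 60 and 2.25 to 3.86 CPM at Day 113. LYZ had 0 counts in all 3 Day 60 wells and in 2 of the 4 Day 113 wells, and SPI1 had 0 counts in Day 113 replicate 2. PTPRC and CD14 were not analysed here. The part of leukocytes and macrophages in the levels of the members was not tested.

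**Figure D4:**
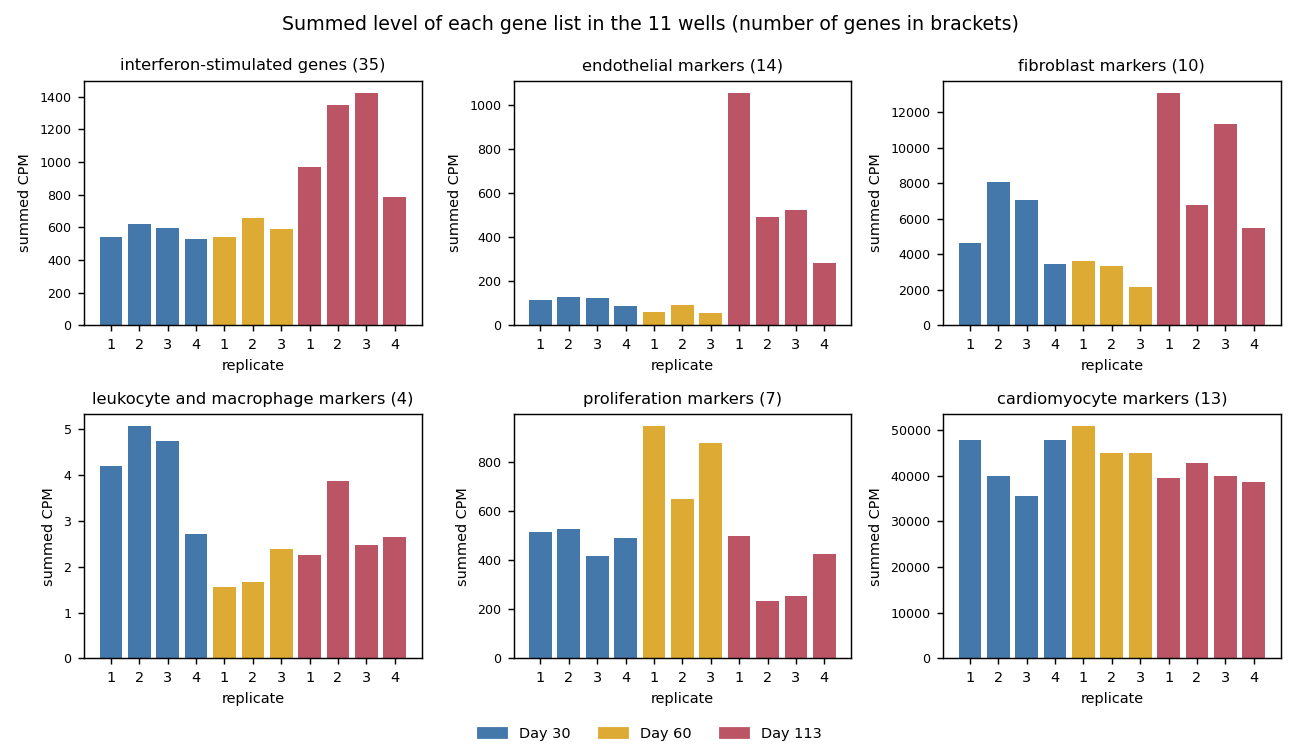
Summed CPM of the 35 members and of 5 marker lists in each of the 11 wells by day of culture, each panel on its own axis. The members reach 786 to 1425 CPM and the endothelial markers 282 to 1054 CPM at Day 113, and the leukocyte and macrophage markers stay at 5.07 CPM or less.

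Members with and without the promoter match described at the start were among those that rose. Of the 19 members with GAAANNGAAA in a window, 13 were higher at Day 113 than at Day 60 and 17 over the whole course. Among all genes the shares were 12.9% and 17.3%. Of the 10 members with a window and no match, 8 were higher in each comparison, among them OAS1 and XAF1. Of the 6 with no window, 5 and 4 were higher. A difference between members with and without a match was not tested. EPSTI1, the member that fell, carries the same 10 matched bases as ISG15 and MX1. Neighbouring genes made up 19 of the members in 7 clusters with gaps under 200 kb, so members of a cluster are not independent of each other.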

How the data were processed

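The authors deposited raw counts of reads, unnormalized, for 19990 genes by symbol and 11 wells. Per the submitters' processing notes, STAR 2.5.3a, featureCounts 2.0.3 and the build hg38 were used. The annotation, strand setting and filters are not given in the sources used here. Every gene of the table has at least 35 counts in all, so a scarcer gene would not be listed. Deposited TPM values for the same genes were checked and not used for any result: the gene length implied by count over TPM had a median Spearman rho of -0.002 (range -0.021 to 0.032) between 55 pairs of libraries over 11210 genes.

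Genes were tested with edgeR 4.0.16 in R 4.3.3 (quasi-likelihood F-test, TMM scaling, filterByExpr with a minimum count of 10, all 11 wells in one fit, day as the only factor). Adjusted p-values are Benjamini-Hochberg values over all 19990 genes within a comparison, with a threshold of 0.05. Standard errors are the absolute log2 fold change over the square root of F. Changes are on the log2 scale, and SD is between wells. The biological coefficient of variation was 0.282. Pairs of wells of 1 day differed beyond sampling noise (chi-square over its degrees of freedom 11.4 to 84), so each well was counted as a sample. For genes with 1 to 3 reads in a day, ratios of summed counts carry an exact 95% interval. Alternatives used limma 3.58.1 (voom), DESeq2 1.42.0, other scalings, filters, thresholds and samples, a replicate block, and each well left out.

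The members and lists were chosen with earlier results of these data known. Any member may be named, and of the pathway lists up to 6 genes each by adjusted p. A listed gene that the counts include is not reported here by name. Locations are from GENCODE 29 (GRCh38) and promoters from RefSeq (GRCh38.p14). Tested on data simulated for Day 113 against Day 60 over 19278 genes, the procedure recovered 88% of 4-fold and 54% of 2-fold changes, with 8 false calls among 150. The changed genes were drawn from those with a mean of at least 1 CPM. These shares therefore do not cover scarcer members such as OAS1, OAS2 and XAF1.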

Additional observations from a re-analysis of the deposited data

Results flagged for a closer look

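In 2 of the 70 groups of 4 wells (35 members on 2 days), a well stood far from the other 3. The rule marks about 1 in 20 groups by chance where values vary normally, a rate that need not hold for counts near 0. The 70 include the Day 30 groups of IFI44L, OAS1, OAS2 and XAF1, which held 0 counts in every well and could not be marked. IFIT3 was at 0.447 CPM in Day 30 replicate 4, with the nearest other well at 1.55 CPM. IFI44 was at 0.0329 CPM in Day 30 replicate 3, a single read, with 0 in the other 3 wells. The rule always marks such a group, so this flag carries no weight.

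For 4 members the change from Day 60 to Day 113 differed from the change from Day 30 to Day 60 by a test of the difference itself in edgeR. The difference was 11.9 on the log2 scale for MX1 (adjusted p = 0.00515), a fitted value that rests on 2 reads at Day 60 and is no bound. It was 0.90 for IFITM2 (adjusted p = 0.0471), 1.14 for IFITM3 (adjusted p = 0.0322) and 3.99 for USP18 (adjusted p = 0.0452). In all 4 the fitted value for the first interval was below 0 and not past the threshold, and the second interval rose. Over the alternatives and single wells left out, the adjusted p ran from 0.000203 to 0.34 for MX1, from 0.00279 to 0.202 for IFITM2, from 0.000967 to 0.166 for IFITM3 and from 0.00542 to 0.144 for USP18. The call was lost when any of 10 of the 11 wells was left out for IFITM2 (the exception is Day 113 replicate 4), any of 7 wells for USP18, any of 5 for IFITM3 and 0 for MX1. Leaving out Day 60 replicate 1 gave 4.73 for USP18 and leaving out Day 60 replicate 2 gave 3.20, and the MX1 difference lay between 10.8 and 12.7 with any single well left out.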

How the results depend on the processing

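The count of 26 members at Day 113 against Day 60 ran from 24 to 29 with 1 well left out, and the 30 at Day 113 against Day 30 from 28 to 31. The 8 at Day 60 against Day 30 became 5 at an adjusted p under 0.01, 4 with a log2 fold change of at least 1, and 5 to 10 with 1 well left out. The 4 members whose intervals differed became 8 with DESeq2 (OAS1 and XAF1 among them), 1 with limma-voom, 12 with the replicate block, 1 at an adjusted p under 0.01, and 1 to 9 with 1 well left out (1 when Day 30 replicate 2 or 3, Day 60 replicate 1 or 3 or Day 113 replicate 3 was the well omitted, 2 for Day 113 replicate 2, and 9 for Day 113 replicate 4). The cause was not tested. Calls kept under every alternative and every well left out in which the member was tested were 3 of 8, 23 of 26, 28 of 30 and 0 of 4. OAS1, OAS2 and XAF1 were not tested with the filter on a mean of at least 1 CPM, nor OAS2 without Day 113 replicate 1, 2 or 3 or, against Day 30, in the fit of those days alone.

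The labels do not say whether a well number is shared across days. Deviations of the 10 same-number pairs correlated at 0.023 to 0.076, and those of different-number pairs at -0.078 to 0.069. Of the 11 wells, 9 correlated best with their own number. The main fit has no term for the well number, and the source of these correlations was not tested. With the replicate block the counts were 11, 29 and 30 members for the 3 pairs of days.

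Signs turned for members that passed no test. IRF7 at Day 60 against Day 30 was 0.13 and became -0.27 with limma-voom, and ran from -0.97 to 0.64 with 1 well left out. STAT2 at Day 113 against Day 60 was 0.04 and became -0.028 with upper-quartile scaling, with a range of -0.032 to 0.094 over wells. STAT2 ranged from -0.131 to 0.022 for Day 60 against Day 30 and from -0.094 to 0.035 for Day 113 against Day 30, and IRF1 from -0.251 to 0.038 for the latter.

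Over all genes, the 2060 calls at Day 60 against Day 30 became 937 at an adjusted p under 0.01, 921 with the fold limit, and 1220 to 2618 with 1 well left out, with 1220, 1259 and 1323 without Day 60 replicate 3, Day 60 replicate 1 and Day 30 replicate 2. The 4790 at Day 113 against Day 60 became 2545 and 1603, and the 6889 over the whole course 4552 and 2637. The 1868 for the interval difference became 618 at an adjusted p under 0.01 and 643 and 774 without Day 60 replicates 1 and 3. Other scalings moved the median of all genes by less than 0.1 on the log2 scale. Depth limits the members at 0 before Day 113, whose folds are bounds.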
